A study of Mus musculus with 6 samples.

Results

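Histone lysine demethylases are the enzymes that take methyl groups off lysines of histone tails and so can undo both repressive and activating marks. The genes described here are 9 of the 23413 genes in the count table: Kdm1a, Kdm2a, Kdm2b, Kdm3a, Kdm4a, Kdm4c, Kdm5a, Kdm5b and Kdm6b. They were chosen by symbol, and the choice rested in part on the level of Kdm6b in LPS against control. Values of the 9 genes in that contrast, and in the contrast that shares its control libraries, are therefore given as a description without p-values. All 9 passed the filter on low counts, and the lowest count of any of them in a library was 44. RNA-seq libraries were made from wild-type mouse alveolar macrophages taken by lavage. The 3 groups of 2 libraries each were control, 100 ng/mL LPS for 4 h in vitro, and 100 ng/mL LPS with 50 nM vitamin D3 (VD3) for 4 h in vitro; how the control cells were kept is not stated in the labels. LPS is an outer membrane component of Gram-negative bacteria, and VD3 is the vitamin whose active form binds the nuclear receptor Vdr. Whether 2 libraries of the same treatment stem from different mice or cultures is not stated in the labels. The p-values therefore reflect only how far these particular libraries vary, and that variation may be technical.

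Demethylases fall into 2 enzyme classes. The LSD class, to which Kdm1a belongs, uses a flavin cofactor, and the JmjC class, to which the other members belong, uses iron, oxygen and 2-oxoglutarate. Kdm6b, also called Jmjd3, removes the H3K27 methylation laid down by the Polycomb complex PRC2 and is known in macrophages as a gene switched on by inflammatory stimuli. Kdm4a and Kdm4c act on H3K9 and H3K36, Kdm3a on H3K9, Kdm1a, Kdm5a and Kdm5b on H3K4, and Kdm2a and Kdm2b, which bind unmethylated CpG DNA, on H3K36.

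Total counts per library were between 5022314 and 5465223. All 13 alveolar macrophage markers in the table passed the filter and summed to 24600 to 30100 CPM, the counts of a gene scaled to a library of fixed size after TMM normalization. Much of this sum was Chi3l3, at 11900 to 17200 CPM. With LPS, 7 of the 13 fell and 3 rose by edgeR's quasi-likelihood test at an adjusted p under 0.05, where 16.2% and 15.7% of all genes did. Their median log2 difference was -0.55. Sftpc of epithelium, Mpo of neutrophils, Cd3e of T cells, Epx of eosinophils and Col3a1 of stroma had 0 counts in every library. Other markers of such cells were counted in every library, among them S100a8 of neutrophils (60 to 96 counts), Il5ra of eosinophils (6 to 16) and Cd8a of lymphocytes (5 to 11). Known target genes of the treatments were measured too: Tnf had 160 and 155 counts in control against 14418 and 10987 in LPS, and Cyp24a1, a vitamin D target, had 0 counts in both LPS libraries against 112 and 124 in LPS + VD3. The LPS libraries were less alike (Pearson's r across genes 0.969, on log2 CPM) than the control (0.991) or LPS + VD3 (0.981) libraries. The difference between LPS 1 and LPS 2 followed transcript GC content across genes with Spearman's rho of 0.655, against 0.235 for control and 0.18 for LPS + VD3. Library LPS 1 carries a title numbered unlike those of the rest, and the labels name no batch. In these bulk samples, fewer cells of a type and less RNA per cell cannot be told apart.

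Of the members with a promoter in the RefSeq table of GRCm38.p6 (6 of 9), Kdm4a is shown because its level differed most between groups among those 6. Kdm1a is shown because it is the LSD class member and, unlike Kdm4a, read lower with VD3 added to LPS, without a call. Kdm2b and Kdm5b, also among those 6, read lower there too. Each stretch is the 250 bases before the annotated start, 5′ to 3′ on the gene's strand. They lie at chr4:118180044-118180293 (Kdm4a) and chr4:136602724-136602973 (Kdm1a), both on the minus strand, and capitals mark a match to the AP-1 motif.
Kdm4a: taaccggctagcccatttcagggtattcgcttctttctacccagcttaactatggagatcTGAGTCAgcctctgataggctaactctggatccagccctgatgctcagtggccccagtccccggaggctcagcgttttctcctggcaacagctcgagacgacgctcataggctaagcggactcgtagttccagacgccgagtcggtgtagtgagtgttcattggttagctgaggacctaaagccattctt
Kdm1a: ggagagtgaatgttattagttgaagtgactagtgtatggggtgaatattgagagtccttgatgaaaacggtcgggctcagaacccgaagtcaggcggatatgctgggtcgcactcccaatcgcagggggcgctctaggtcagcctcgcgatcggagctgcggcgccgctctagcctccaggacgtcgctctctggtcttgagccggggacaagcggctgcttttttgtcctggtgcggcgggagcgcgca

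The motifs searched, on both strands, were TGANTCA for AP-1, ACGTG for hypoxia factors, CACGTG (which contains ACGTG) for E-box factors, the kappa-B motif of NF-kB in a strict and a looser form that includes it, and the direct repeat of the vitamin D receptor. The Kdm4a stretch held TGAGTCA, beginning 190 bases before the start, and AP-1 matches were found in 6.73% of 32536 such windows. Another match to AP-1, TGACTCA, lay 175 bases before 1 of 3 Kdm3a starts. ACGTG lay 229 bases before the Kdm5b start and CACGTG 85 and 53 bases before 1 Kdm4c start, where 16.65% and 6.04% of windows held these motifs. Kdm6b, Kdm2a and Kdm5a had no promoter listed and were not searched. The Kdm1a stretch held none of the motifs, and neither NF-kB form nor the vitamin D receptor motif was found in any window of the 6 genes searched. Those 3 motifs were found in 0.36%, 1.21% and 0.55% of all windows, and no match says only that these letters are not in this window. The Kdm1a stretch was 59.2% GC with 21 CpG pairs and the Kdm4a stretch 53.6% GC with 12, where the median window had 52.4% GC and 6 CpG pairs.

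Kdm6b had the largest difference from control of the 9 genes. On mm10 it lies on chromosome 11 at 69398508 to 69413675, minus strand. Reads counted for it numbered 77 and 79 in the controls, 378 and 354 after LPS, and 454 and 660 after LPS + VD3. As CPM these were 13.2 and 12.7, 77.6 and 71.6, and 95.0 and 131 CPM. Every treated library was above both control libraries, and both LPS + VD3 libraries were above both LPS libraries. The level was 12.9 ± 0.375 CPM in control, 74.6 ± 4.21 in LPS and 113 ± 25.7 in LPS + VD3 (SD, n = 2). The fitted difference was 5.76-fold for LPS against control, a log2 fold change of 2.53 ± 0.21 (SE), and 8.75-fold for LPS + VD3 against control (3.13 ± 0.21). An antisense gene, Kdm6bos, overlaps 4.1% of the Kdm6b exon length, and the strand setting of the counting is not given in the sources used here.

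Kdm4a had the next largest difference. This gene lies on chromosome 4 at 118136957 to 118180043 and had 52.3 and 53.2 CPM in the controls, 159 and 147 after LPS, and 214 and 215 after LPS + VD3. The groups did not overlap, and the 2 libraries of each group were close to each other. LPS against control was 2.90-fold (log2 fold change 1.53 ± 0.15) and LPS + VD3 against control 4.06-fold (2.02 ± 0.15). Its relative Kdm4c, on the same chromosome at 74242497 to 74405860 and of the same substrate class, did not share this: it had 29.8 and 32.9 CPM in the controls, 31.0 and 37.8 after LPS, and 35.4 and 35.2 after LPS + VD3. The LPS values of Kdm4c overlapped those of control, with a log2 difference of 0.13 ± 0.18.

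**Figure D1:**
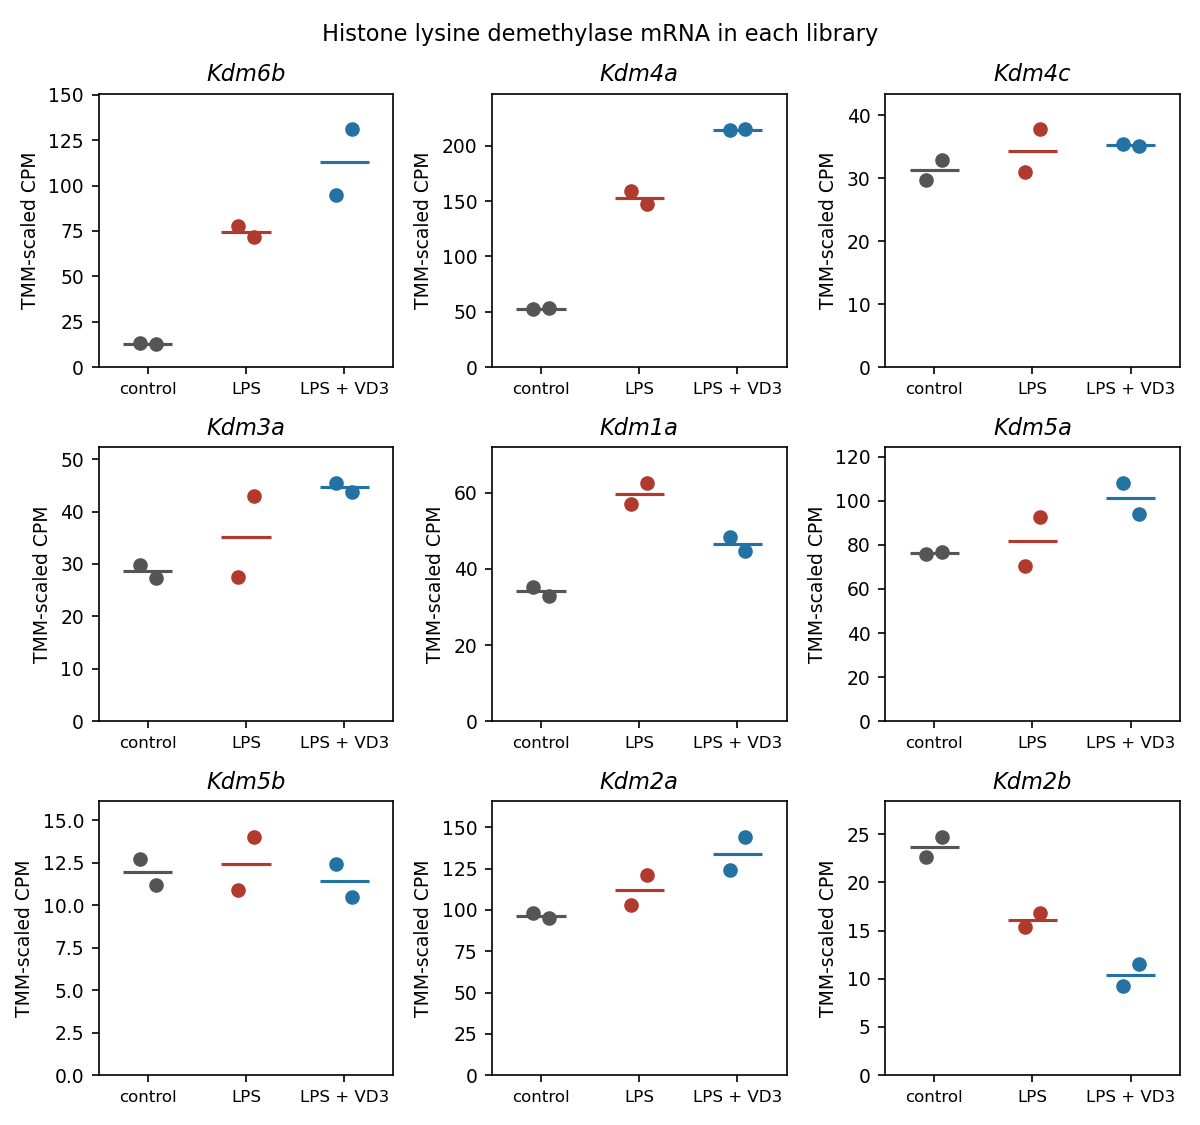
TMM-scaled CPM (vertical axis, from 0) of each of the 9 genes in the 6 libraries; each point is a library and each bar the mean of the 2 libraries of a group (control, LPS, LPS + VD3). Kdm6b and Kdm4a stand higher in each treated group than in control, Kdm2b stands lower, and Kdm5b is at 10.5 to 14.0 CPM throughout.

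Kdm1a, the LSD class enzyme that works within the CoREST repressor complex, was highest in LPS alone. It lies on chromosome 4 at 136550540 to 136602723 and had 35.3 and 33.0 CPM in the controls, 57.0 and 62.5 after LPS, and 48.4 and 44.8 after LPS + VD3. The LPS + VD3 libraries thus sat between the other groups, with no overlap on either side. LPS against control was 1.75-fold (log2 fold change 0.81 ± 0.17), and LPS + VD3 against control was 1.36-fold (0.45 ± 0.17).

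Kdm2b, the CpG-binding member that also brings a variant Polycomb complex to DNA, was the 1 gene of the 9 that was lower in each treated group. Its chromosome 5 locus spans 122870665 to 122989823, and its levels were 22.6 and 24.7 CPM in the controls, 15.4 and 16.8 after LPS, and 9.21 and 11.5 after LPS + VD3. The 3 groups did not overlap, with control highest and LPS + VD3 lowest. The log2 difference was -0.56 ± 0.21 for LPS against control and -1.18 ± 0.22 for LPS + VD3 against control, the latter a level 2.27-fold lower. Exons of Rnf34 on the opposite strand overlap 5.8% of the Kdm2b exon length. The related Kdm2a, on chromosome 19 at 4314419 to 4398285, read higher in the treated groups. It had 98.2 and 95.0 CPM in the controls, 103 and 121 after LPS, and 124 and 144 after LPS + VD3. Its log2 difference was 0.21 ± 0.16 for LPS against control and 0.47 ± 0.16 for LPS + VD3 against control. The 3 groups did not overlap in CPM, but the unscaled LPS counts (500 and 598) overlapped those of control (573 and 593).

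The LPS libraries of the remaining 3 members overlapped control. Kdm3a, an H3K9 demethylase known as a hypoxia-induced gene (chromosome 6, 71588972 to 71632990), had 29.8 and 27.4 CPM in the controls, 27.5 and 42.9 after LPS, and 45.4 and 43.8 after LPS + VD3. Its LPS libraries stood far apart, one among the control values and one next to the LPS + VD3 values. Kdm5a, an H3K4 demethylase first found as a partner of the retinoblastoma protein (chromosome 6, 120364124 to 120444574), had 75.7 and 76.8 CPM in the controls, 70.6 and 92.5 after LPS, and 108 and 94.2 after LPS + VD3. Its LPS values again lay on both sides of control. Kdm5b, its closest relative here (chromosome 1, 134560171 to 134635285), had 12.7 and 11.2, 10.9 and 14.0, and 12.4 and 10.5 CPM in the same order, so that all 3 groups overlapped. The transcript GC content was 45.5% for Kdm3a, 43.3% for Kdm5a and 43.7% for Kdm4c, which all read higher in LPS 2 than in LPS 1. Kdm5b (47.6%), Kdm2a (48.3%), Kdm1a (51.7%) and Kdm2b (52.6%) also read higher in LPS 2. Kdm4a (53.6%), close in GC content to Kdm1a and Kdm2b, and Kdm6b (59.6%) read higher in LPS 1. The part of GC content in these differences was not tested.

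The counts of members past an adjusted p of 0.05 in edgeR's quasi-likelihood fit are a description in both contrasts with control, since the choice of the genes used these values, and nothing is read from them. For LPS against control they were Kdm6b, Kdm4a and Kdm1a (3 of 9, all higher), where 31.8% of the 10724 genes tested were called and 15.7% were called higher and 16.2% lower. Without control 1 or control 2 Kdm1a was no longer past the threshold and 2 members were. Kdm2b, lower, came past it in 6 of 15 alternatives (without scaling, in both fits of the log2 values, with the replicate number in the fit, with GC offsets and without LPS 2), and Kdm3a, higher, in 1 (without LPS 1); each of these gave 4 members. The median log2 difference of the 9 genes was 0.21, against 0.01 over all genes tested. With libraries scaled by total count alone, where the median over all genes for LPS was -0.289, Kdm2a, Kdm4c, Kdm5a and Kdm5b turned from slightly higher to slightly lower (-0.09, -0.16, -0.20 and -0.24) and Kdm3a stood at 0.00, while Kdm6b, Kdm4a, Kdm1a and Kdm2b kept their sign. For LPS + VD3 against control 5 members were past it, with Kdm6b, Kdm4a, Kdm3a and Kdm2a higher and Kdm2b lower. Of all genes 35.0% were called there, 17.7% higher and 17.3% lower. The Kdm2a and Kdm3a calls were lost with DESeq2, without scaling, without the filter, in the deposited log2 values and without control 1, control 2, LPS + VD3 1 or LPS + VD3 2, each of which left 3 members.

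**Figure D2:**
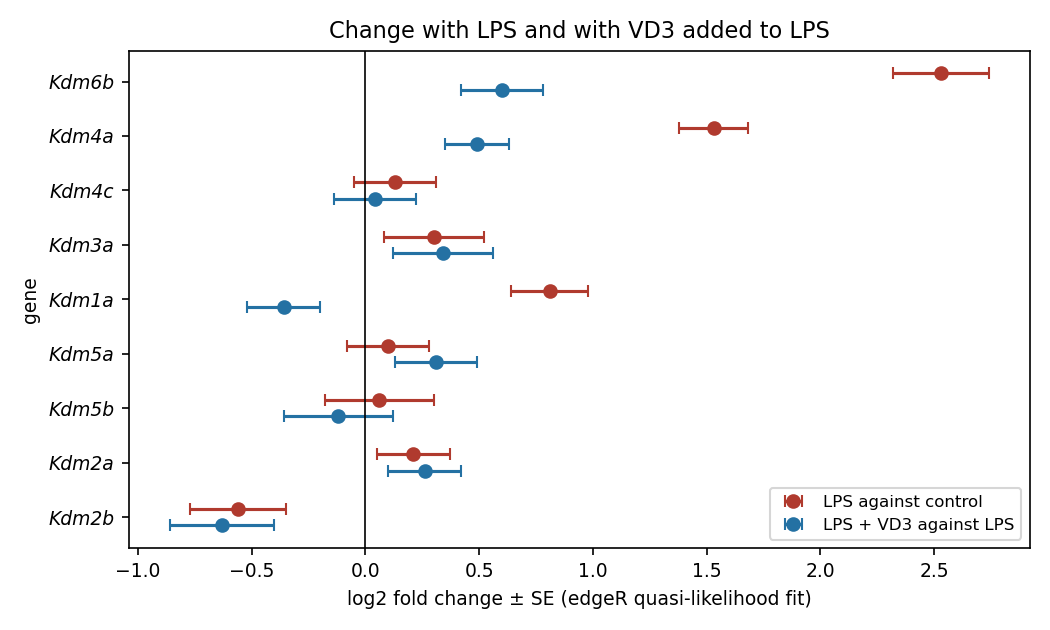
Log2 fold change with its SE (horizontal axis) of the 9 genes for LPS against control and for LPS + VD3 against LPS, from one edgeR fit to all 6 libraries. Kdm6b and Kdm4a are highest in both comparisons, at 2.53 and 1.53 for LPS and 0.60 and 0.49 for VD3 added to LPS; the comparisons share the LPS libraries.

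Adding VD3 to LPS was compared with LPS alone, a contrast other than the one on which the choice of Kdm6b rested. It shares the LPS libraries with that one, and the genes were chosen with earlier results of these data known. The p-values here can therefore not be called independent of the choice. None of the 9 members passed edgeR's quasi-likelihood test with Benjamini-Hochberg adjustment over all genes, where 3.83% of genes were called (2.25% higher, 1.59% lower). At an unadjusted p under 0.05 there were 3 of 9, Kdm4a, Kdm6b and Kdm2b, where 22.0% of all genes were under it, and none passed with DESeq2 or limma-voom. With the replicate number in the fit, Kdm4a and Kdm6b did pass (edgeR adjusted p = 0.0447 and 0.0459), and 1152 genes were called. Kdm4a was 1.40-fold higher with VD3 (log2 difference 0.49 ± 0.14, adjusted p = 0.098 by edgeR). Kdm6b was 1.52-fold higher (0.60 ± 0.18, adjusted p = 0.11 by edgeR), and Kdm2b was 1.55-fold lower (-0.63 ± 0.23, adjusted p = 0.152 by edgeR). In each of these genes both LPS + VD3 libraries lay on the same side of both LPS libraries. The same held for Kdm1a, Kdm2a, Kdm3a and Kdm5a, so it does not set these genes apart. Its share over all genes was not counted.

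The other 6 members differed less between LPS + VD3 and LPS. Kdm1a, whose level was higher in LPS than in either other group, had a log2 difference of -0.36 ± 0.16 (edgeR adjusted p = 0.232). Kdm3a was at 0.34 ± 0.22, Kdm5a at 0.31 ± 0.18 and Kdm2a at 0.26 ± 0.16 (edgeR adjusted p = 0.374, 0.316 and 0.357). Kdm4c and Kdm5b were nearest to no difference, at 0.04 ± 0.18 and -0.12 ± 0.24. The median of the 9 genes was 0.26, against 0.00 over all genes tested.

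The VD3 differences of Kdm4a and Kdm6b passed the test under some alternatives. With offsets for transcript GC content, Kdm6b stood at 1.00 (edgeR adjusted p = 0.0117) and Kdm4a at 0.66 (0.00644), and both were called. Over all genes, 767 were called with these offsets, against 411 in the reported fit. Without LPS 2, where LPS 1 alone stood for its group, Kdm3a was at 0.70, Kdm5a at 0.52, Kdm6b at 0.55 and Kdm4a at 0.44. Without LPS 1, Kdm4a was at 0.53. The Kdm6b difference was 0.82 without LPS + VD3 1 and 0.34 without LPS + VD3 2, with no call in either. Over all 15 alternatives Kdm4a stayed between 0.44 and 0.66 and Kdm6b between 0.34 and 1.00.

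**Figure D3:**
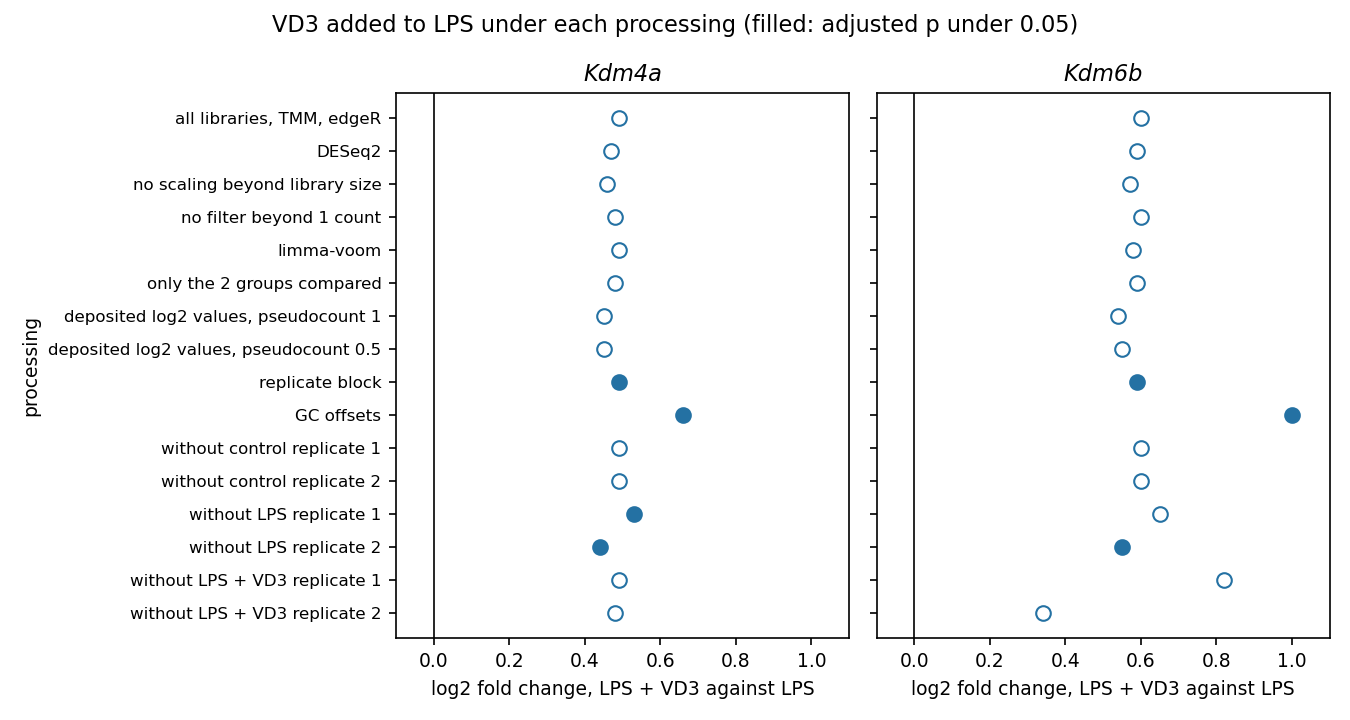
Log2 fold change of Kdm4a and Kdm6b for LPS + VD3 against LPS (horizontal axes) in the reported fit and under 15 alternatives (vertical axis); filled points had an adjusted p under 0.05. All points lie above 0, and those filled are 4 alternatives for Kdm4a and 3 for Kdm6b.

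Levels were set side by side between genes only after division by exon length, as CPM per kb. In control the order was Kdm4a (9.12 ± 0.117 CPM per kb; SD, n = 2), Kdm2a (6.69 ± 0.153), Kdm1a (6.59 ± 0.311), Kdm5a (5.39 ± 0.0524), Kdm4c (5.38 ± 0.37), Kdm3a (3.48 ± 0.207), Kdm2b (2.18 ± 0.135), Kdm6b (1.86 ± 0.0539) and Kdm5b (0.722 ± 0.0623). The libraries of Kdm2a and Kdm1a overlapped, as did those of Kdm5a and Kdm4c, so their order is not set. Kdm6b, the eighth in control, was the third in LPS at 10.7 ± 0.605 CPM per kb, where it overlapped Kdm1a (11.5 ± 0.746), and the second in LPS + VD3 at 16.3 ± 3.69. Kdm4a was the highest in all 3 groups, at 26.4 ± 1.44 in LPS and 37.1 ± 0.0749 in LPS + VD3. The lowest member was Kdm5b in all 3 groups, at 0.75 ± 0.132 in LPS and 0.692 ± 0.077 in LPS + VD3.

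**Figure D4:**
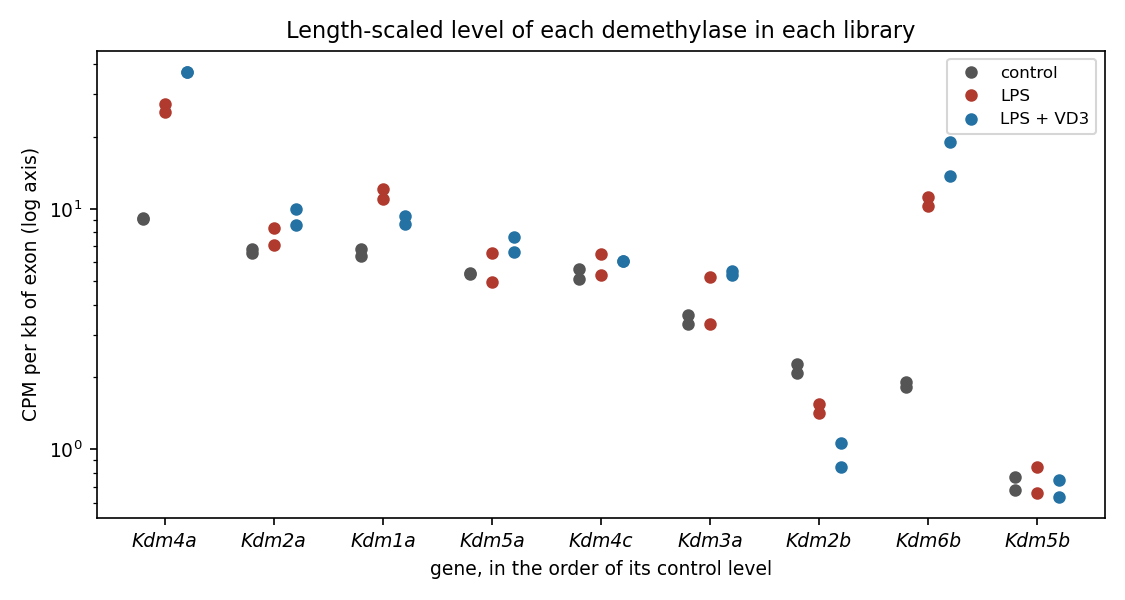
CPM per kb of exon on a log axis for the 9 genes, ordered by their control level, with 1 point per library and colour for the group. Kdm6b is at 1.86 CPM per kb in control, 10.7 in LPS and 16.3 in LPS + VD3, and Kdm2b at 2.18, 1.48 and 0.955.

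Ratios between relatives within a library do not depend on library scaling. Kdm6b had 0.336 and 0.312 times the length-scaled level of Kdm6a, the other H3K27 demethylase, in the control libraries. This ratio was 2.70 and 1.62 after LPS and 1.75 and 2.47 after LPS + VD3, so Kdm6b was below Kdm6a in both control libraries and above it in all 4 treated ones. The 2 LPS ratios were apart, and the transcripts differ in GC content, 59.6% for Kdm6b and 42.5% for Kdm6a. Kdm4a was at 1.77 and 1.63 times Kdm4c in the controls, 5.16 and 3.91 after LPS, and 6.09 and 6.13 after LPS + VD3. Kdm2a was at 3.27 and 2.90 times Kdm2b in the controls, 5.02 and 5.42 after LPS, and 10.1 and 9.38 after LPS + VD3, again without overlap between groups. Kdm5a was at 6.98 and 8.0 times Kdm5b in the controls, 7.59 and 7.74 after LPS, and 10.3 and 10.4 after LPS + VD3, and the control and LPS ratios overlapped.

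The profile of Kdm6b over the 6 libraries was nearest to those of Cd38, Pdpn, Kalrn, Pou2f2 and Clic4. The measure was the root mean square difference of centred log2 CPM, which was 0.14 for Cd38, 0.165 for Pdpn, 0.197 for Kalrn, 0.205 for Pou2f2 and 0.206 for Clic4. Cd38, an enzyme that consumes NAD, had 14.4 and 12.7 CPM in the controls, 62.2 and 70.0 after LPS, and 96.1 and 119 after LPS + VD3. Kalrn and Pou2f2 rest on 3 or 4 counts in each control library.

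Some markers of other cells also differed between the groups. Out of 5 monocyte markers listed, 2 passed the filter, and 1, the matrix proteoglycan gene Vcan, was higher in LPS (3.43 and 3.69 CPM in control, 267 and 366 in LPS, 181 and 204 in LPS + VD3), while the chemokine receptor Ccr2 was lower. The summed level of the 5 genes was 10.1 to 11.7 CPM in control, 270 to 369 in LPS and 182 to 207 in LPS + VD3. The 7 neutrophil markers summed to 17.5 to 19.7, 22 to 27.5 and 29.1 to 35.6 CPM in the same groups, with S100a9, Mpo, Retnlg and Elane at 0 counts in every library. The 6 markers of stroma and endothelium summed to 1.44 to 1.71, 5.95 to 7.49 and 2.19 to 2.51 CPM. The 6 dendritic markers summed to 17.6 to 24.2, 11.1 to 11.3 and 14.9 to 15.1 CPM. Of these Clec9a was lower in LPS (15.8 and 22.9 CPM in control, 4.51 and 5.46 in LPS) and Xcr1 higher (0.857 and 0.641 in control, 2.87 and 3.44 in LPS). The part of such cells in the Kdm6b difference was not tested.

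Among 20 other tested genes of the JmjC and LSD family, 4 rose (Mina, Jhdm1d, Kdm5c and Phf8) and 2 fell (Jmjd1c and Hr) with LPS at an adjusted p under 0.05 in edgeR's quasi-likelihood test, with a median log2 difference of 0.02. Over all genes 15.7% rose and 16.2% fell, so the 6 of 20 called stand near the 31.8% of all genes. Mina, which encodes a ribosomal and histone oxygenase (Riox2), rose by 1.54 ± 0.17 (log2; adjusted p = 8.43e-05 by edgeR), though exons of Crybg3 on the opposite strand overlap 22.4% of its exon length. Jhdm1d, the older symbol of the H3K9 and H3K27 demethylase Kdm7a, rose by 1.64 ± 0.25 (edgeR adjusted p = 0.000614), with 78.3 and 90.2 CPM in control and 186 and 338 in LPS. Kdm5c, the X-linked relative of Kdm5a and Kdm5b, rose by 1.12 ± 0.14 (edgeR adjusted p = 0.0002), from 102 and 96.0 to 219 and 212 CPM. Among the Kdm5 genes Kdm5c thus passed the test with LPS, while Kdm5a and Kdm5b were at 0.10 ± 0.18 and 0.06 ± 0.24; the difference between genes was not tested. None of the 20 was called for LPS + VD3 against LPS by edgeR, DESeq2 or limma-voom, with 2 at an unadjusted p under 0.05 (22.0% of all genes).

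**Figure D5:**
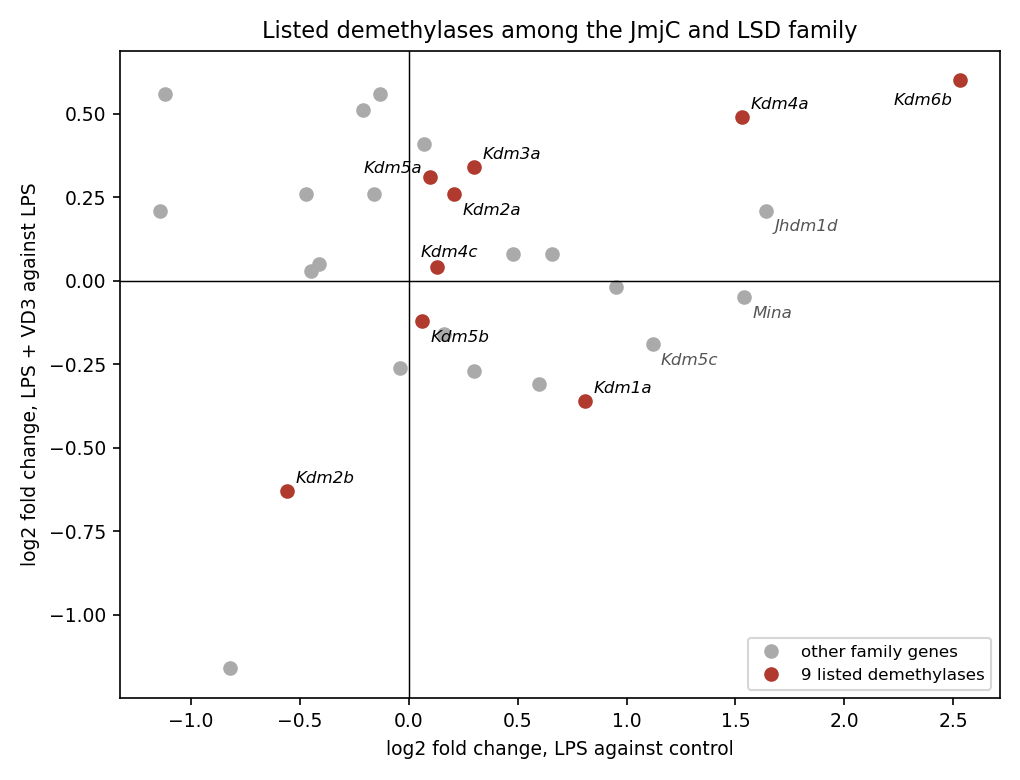
Log2 fold change for LPS against control (horizontal axis) and LPS + VD3 against LPS (vertical axis) of the 9 listed demethylases and 20 other family genes, 1 point per gene. Kdm6b lies at 2.53 and 0.60, Kdm4a at 1.53 and 0.49 and Kdm2b at -0.56 and -0.63; both axes use the LPS libraries, so the positions on them are not independent.

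The enzymes and partners that oppose or join the 9 demethylases were mixed in direction. In the PRC2 list, whose complex lays down the mark that Kdm6b removes, 3 of 11 tested genes rose and 1 fell with LPS by edgeR's test, with a median of -0.28, where 15.7% of all genes rose and 16.2% fell. Those that rose were the accessory genes Jarid2, Phf1 and Mtf2, the last called in 4 of 15 alternatives, and all 3 calls were lost without control 1 (adjusted p by edgeR 0.0696, 0.0786 and 0.248) or control 2 (0.0832, 0.0543 and 0.106). The one that fell was Ezh2, a catalytic subunit, by 1.37 ± 0.19 in log2 terms (adjusted p = 0.000342 by edgeR). It had 37.5 and 33.8 CPM in control, 13.7 and 13.8 after LPS, and 18.8 and 18.9 after LPS + VD3. The alternative catalytic subunit Ezh1 was not called with LPS, at 0.38 ± 0.18 (edgeR adjusted p = 0.133). Its levels were 40.6 and 33.5 CPM in control, 46.8 and 49.6 after LPS, and 38.9 and 34.8 after LPS + VD3. With VD3 added to LPS, 1 of the 11 was called by edgeR, where 3.83% of all genes were. This was the accessory gene Phf1, which fell by 1.54 ± 0.31 (edgeR adjusted p = 0.0233). The Phf1 call was lost when no filter was applied (0.0679) and when LPS + VD3 1 (0.0772) or LPS + VD3 2 (0.268) was left out.

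In the H3K9 methylation list 3 of 12 genes fell with LPS and none rose by edgeR, with a median of -0.33, where 16.2% of all genes fell. The third, Ehmt1, was called in 7 of 15 alternatives and lost its call, among others, without control 1 (edgeR adjusted p = 0.24) or control 2 (0.193) and with DESeq2 (0.124). The heterochromatin proteins Cbx5 and Cbx3, which read this mark, fell by 2.07 ± 0.18 and 1.78 ± 0.19 (log2; adjusted p = 1.7e-05 and 5.74e-05 by edgeR). The H3K4 list held 19 genes, of methyltransferases and of other subunits of their complexes. Of these 2 rose and 1 fell, where 15.7% of all genes rose and 16.2% fell. Those that rose were Mll2 and the CpG-binding subunit Cxxc1, and Setd7 fell, at -2.13 ± 0.18 (edgeR adjusted p = 1.19e-05). The rises of Mll2 and Cxxc1 were lost without control 2 (edgeR adjusted p = 0.106 and 0.137), and that of Mll2 also without control 1 (0.086). Both were lost without scaling (0.0695 and 0.0617) and in both fits of the log2 values (0.0612 and 0.0615 for Mll2, 0.0708 and 0.0713 for Cxxc1). Of 7 H3K36 methyltransferase genes 1 fell, Whsc1, the older symbol of Nsd2, at -1.13 ± 0.16 (edgeR adjusted p = 0.000347). With VD3 added to LPS, where 3.83% of all genes were called, its relative Whsc1l1 was the 1 of 7 called and rose by 0.77 ± 0.16 (edgeR adjusted p = 0.0326). That call was lost without the filter (0.0968), in a fit of the 2 groups alone (0.101) and without control 1 or 2 (0.103 each), LPS + VD3 1 (0.128) or LPS + VD3 2 (0.322).

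Among CoREST and other partners of Kdm1a, 3 of 15 rose and 1 fell with LPS, and among partners of Kdm2b in its Polycomb complex 2 of 9 rose, where 15.7% of all genes rose and 16.2% fell. Without control 2 the calls of Phf21a, Gfi1b, Gse1 and Rnf2 among these were lost (edgeR adjusted p = 0.0553, 0.0639, 0.0701 and 0.0716), and without control 1 those of Gfi1b, Gse1 and Rnf2 (0.119, 0.157 and 0.158). Rnf2 was called in 7 of 15 alternatives in all. Bcorl1, a corepressor of that complex, rose by 2.05 ± 0.20 (log2; adjusted p = 3.66e-05 by edgeR), while Kdm2b itself was lower. With VD3 added, none of the 15 and none of the 9 were called by edgeR, DESeq2 or limma-voom, with 3 and 1 at an unadjusted p under 0.05 (22.0% of all genes).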

How the data were processed

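Libraries were prepared with KAPA mRNA HyperPrep after RNeasy Micro extraction, per the labels' protocols. The deposited table holds whole-number counts per gene that the authors made; TopHat2, edgeR and mm10 are named in the submitters' processing notes, whereas counting program, annotation and strand setting are not stated there. A second deposited table holds log2 values equal to log2(CPM + 1) of the counts within 0.00423 for 10327 matched genes of 10343, and was used only in an alternative. The count test was edgeR 4.0.16 under R 4.3.3: filterByExpr defaults (minimum count 10, minimum total 15) left 10724 of 23413 genes, libraries were scaled by TMM, and a model of 3 group means used all 6 libraries (glmQLFit, legacy off). Benjamini-Hochberg adjustment ran over all genes tested, with a threshold of 0.05. The SE of a log2 fold change is its size divided by the root of the F statistic. DESeq2 1.42.0, limma 3.58.1, no scaling, no filter, a fit of the 2 groups compared, the log2 values with pseudocounts 1 and 0.5, a replicate block, GC offsets and leaving out each library were alternatives. The edgeR script was tested on simulated data. Exon lengths, positions and GC content come from GENCODE vM21 on GRCm38, with a GC value for 98.3% of the genes listed, and promoters from RefSeq. By rule the named genes are the members, up to 3 genes per list and comparison with the smallest p past the threshold, 4 treatment checks and the 5 genes most like Kdm6b. Of the treatment checks, values of Tnf and Cyp24a1 are given. Outside this rule Phf8, Jmjd1c, Hr, Ezh1, Kdm6a and cell type markers are named as well. The members and lists were chosen with earlier results of these data known. A gene that the naming rule takes is not reported here.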

Additional observations from a re-analysis of the deposited data

How the results depend on the processing

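Over 405 values of the 9 genes under 15 alternatives in 3 comparisons, 361 stayed on their side of the threshold, 20 lost a call, 24 gained one and none of those called turned round. In LPS + VD3 against LPS, 2 members were called under GC offsets; a replicate block also gave 2 (Kdm4a at 0.49 and Kdm6b at 0.59); between 0 and 4 were called when 1 library was left out. In LPS + VD3 against control, 3 members were called with DESeq2, without scaling, without a filter and in both fits of the log2 values, and 3 to 7 when 1 library was left out. The LPS + VD3 libraries have the source names LPS1 plus VD3 and LPS2 plus VD3, which do not state whether they share cells with LPS 1 and LPS 2. The replicate block was not used in the reported fit because the labels do not say what a shared number means. The differences between replicates 1 and 2 correlated across genes at 0.172 (control and LPS), 0.0894 (control and LPS + VD3) and 0.196 (LPS and LPS + VD3). Over all genes, 411 calls for LPS + VD3 against LPS became 169 without a filter, 258 in a fit of the 2 groups, 1152 with the block and 767 with GC offsets. Leaving out 1 library gave 55 (LPS + VD3 2), 94 (LPS + VD3 1), 246 (control 1), 247 (control 2) and 3670 (LPS 2) there, 1940 (control 2) and 1975 (control 1) to 4829 in place of 3411 for LPS against control, and 2126 (control 1), 2135 (LPS + VD3 2) and 2144 (control 2) to 5410 in place of 3749 for LPS + VD3 against control; the cause was not tested. The share of higher calls was 49.2% for LPS and 50.5% for LPS + VD3 against control, and 26.2% and 25.9% without scaling. With 2 libraries a group, small differences are not detectable at this depth and spread.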

Other observations

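JmjC demethylases consume 2-oxoglutarate, and genes that make or use it were measured as a list of 20. With LPS, 4 of the 20 fell and none rose by edgeR's quasi-likelihood test (16.2% and 15.7% of all genes), and the call of D2hgdh was lost without control 1 (edgeR adjusted p = 0.0843), control 2 (0.168) or LPS 2 (0.0587) and with DESeq2 (0.139). Idh1, the cytosolic enzyme that makes 2-oxoglutarate from isocitrate, had 324 and 321 CPM in the controls, 150 and 157 after LPS, and 392 and 337 after LPS + VD3. It fell by 1.07 ± 0.15 (log2) with LPS (edgeR adjusted p = 0.000333) and rose by 1.25 ± 0.15 with VD3 added to LPS (edgeR adjusted p = 0.00162), and both calls held under all 15 alternatives run. It was the 1 gene of the 20 called for VD3 added to LPS, where 3.83% of all genes were called. Got1, the cytosolic aspartate aminotransferase, fell by 0.99 ± 0.19 with LPS (edgeR adjusted p = 0.00314) and was at -0.03 ± 0.21 with VD3 added (edgeR adjusted p = 0.952).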
